A study of Mus musculus with 6 samples.

Results

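Nuclear genes for subunits of the mitochondrial respiratory chain were followed on 6 one-colour Affymetrix arrays of mouse macrophage RNA. Members were the 80 genes, of 18193 with a probe set of 1 gene symbol, whose names begin as the NADH dehydrogenase (Nduf), succinate dehydrogenase (Sdh), ubiquinol-cytochrome c reductase (Uqcr), cytochrome c oxidase (Cox, numbers 4 to 8) or ATP synthase (Atp5) subunits do. They comprised 34 genes of complex I, 4 of complex II, 8 of complex III, 17 of complex IV and 17 of complex V, each read from its most highly expressed probe set among 163. The rule used gene names and overall level, not differences between groups. Every group is macrophages, and the groups were Trib1-deficient (KO, here knockout-labelled) with lipopolysaccharide (LPS, a bacterial cell wall component), n = 2, Trib1-line wild type also given LPS, n = 2, wild type with LPS, n = 1, and wild type in medium alone, n = 1. The last pair was made to define LPS-inducible genes and is called the LPS pair here. Both genotypes of the Trib1 line received LPS, so no array shows the knockout without it. Strain, sex, age, tissue of origin, LPS dose and time are not in the labels, nor is whether the 2 arrays of a genotype are different animals. P-values therefore measure only the spread between these samples.

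The respiratory chain lies in the inner mitochondrial membrane. Complexes I and II pass electrons from NADH and succinate to ubiquinone, complex III passes them on to cytochrome c, and complex IV to oxygen, while complex V uses the proton gradient built on the way to make ATP. Macrophages activated by LPS are known to shift their metabolism from oxidative phosphorylation towards glycolysis and to alter succinate oxidation and reactive oxygen production at complexes I and II. Most subunits are nuclear-encoded, and several subunits of complex IV have tissue isoforms made mainly in muscle, lung or testis.

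Intensities were brought to a common trimmed mean, and values under 29.9 were treated as not measurable (the floor). The deposited trimmed mean was 95.5 to 106.6 on the Trib1-line arrays and 500 on both arrays of the LPS pair, so the deposited scales of the 2 sets differ. Trib1 on probe set 1424880_at measured 88.1 and 20.9 in the knockout-labelled samples, 17.9 and 17.5 in wild type of that line, 189.3 with LPS in the LPS pair and 383.5 in medium. Where it lies relative to the deletion is not given in the labels, so it does not check them, and every genotype direction rests on them. Of 13 macrophage markers, 13 were above the floor on all 6 arrays. The X-inactivation transcript Xist (1427262_at) measured 4.82, 5.56, 2.03 and 3.72 on the Trib1-line arrays and 980.5 and 1616 on the LPS and medium arrays of the LPS pair. The Y-linked Eif2s3y (1417210_at) measured 471.7, 366.6, 534.2 and 218.8 on the Trib1-line arrays, against 4.74 and 0.335 in the pair. The 2 sets therefore differ in sex-linked transcripts as well as in line and deposited scale.

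Promoters are shown for 5 members on which the comparisons below turn. RefSeq (GRCm38.p6) gave a promoter for 66 of the 80 genes, taken here as the 250 bases before the first listed transcript start, on the gene's strand. Capitals mark matches, on either strand, to motifs of factors known for nuclear respiratory genes: NRF1, GABP (CCGGAAGT), YY1, estrogen-related receptors (CAAGGTCA) and the general factor Sp1 (GGGCGG).
Sdha, chr13:74350241-74350490, minus strand: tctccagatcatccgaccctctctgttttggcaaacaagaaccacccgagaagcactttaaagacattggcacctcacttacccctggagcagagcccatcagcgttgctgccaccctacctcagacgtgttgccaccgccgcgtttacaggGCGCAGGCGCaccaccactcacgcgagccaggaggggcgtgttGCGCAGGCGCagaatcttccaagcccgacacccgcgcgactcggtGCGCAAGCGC
Ndufs4, chr13:114388095-114388344, minus strand: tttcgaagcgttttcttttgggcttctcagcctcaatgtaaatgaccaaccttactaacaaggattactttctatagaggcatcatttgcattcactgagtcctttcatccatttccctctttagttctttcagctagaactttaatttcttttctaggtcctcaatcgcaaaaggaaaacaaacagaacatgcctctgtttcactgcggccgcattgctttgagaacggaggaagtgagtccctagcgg
Ndufb1, chr12:101975739-101975988, minus strand: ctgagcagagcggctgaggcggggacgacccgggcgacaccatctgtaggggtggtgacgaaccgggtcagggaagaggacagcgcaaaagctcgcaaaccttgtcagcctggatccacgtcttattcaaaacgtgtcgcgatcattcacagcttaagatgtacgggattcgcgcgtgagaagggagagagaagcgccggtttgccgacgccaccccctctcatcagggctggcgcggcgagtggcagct
Ndufb10, chr17:24724424-24724673, minus strand: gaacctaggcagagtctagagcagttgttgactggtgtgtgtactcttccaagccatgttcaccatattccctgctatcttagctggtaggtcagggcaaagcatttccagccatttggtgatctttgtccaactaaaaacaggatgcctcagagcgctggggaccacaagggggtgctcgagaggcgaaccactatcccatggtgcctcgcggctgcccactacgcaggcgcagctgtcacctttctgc
Atp5md, chr19:47090648-47090897, minus strand: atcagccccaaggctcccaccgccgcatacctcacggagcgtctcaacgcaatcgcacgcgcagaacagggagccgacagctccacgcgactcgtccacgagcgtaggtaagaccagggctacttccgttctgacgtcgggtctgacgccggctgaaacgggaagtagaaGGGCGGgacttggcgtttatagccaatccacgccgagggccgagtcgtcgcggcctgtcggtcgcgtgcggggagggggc
The Sdha window holds 3 NRF1 matches and the Atp5md window 1 Sp1 match, while the windows of Ndufs4, Ndufb1 and Ndufb10 hold none of these letters. Among members with a promoter, 10 (15.2%) held the NRF1 letters, against 3.86% of 27025 gene promoters of the same length. These were spread over complex I (4 of 31), complex II (2 of 3), complex IV (1 of 12) and complex V (3 of 15), with 0 of 5 in complex III. GABP letters were in 4.55% of member and 2.93% of all promoters, estrogen-related receptor letters in 4.55% and 1.31%, and Sp1 letters in 37.9% and 32.9%. YY1 letters were in 0 member promoters and 0.289% of all. A match is a description of these letters, not a bound site, and the shares were not tested.

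With LPS, subunit genes of complexes I and II were mostly lower than in medium in the LPS pair, by small amounts. Of the 34 complex I genes, 29 (85.3%) had a lower value on the LPS array than on the medium array, as did 4 of 4 complex II genes, 4 of 8 in complex III, 4 of 15 in complex IV and 10 of 17 in complex V. The share of lower values was 56.4% over all 29115 probe sets measurable in this pair, and with 1 probe set per gene 58% were lower and 42% higher. The log2 ratio of LPS to medium had a median of -0.29 in complex I, -0.31 in complex II, -0.03 in complex III, 0.12 in complex IV (-0.07 with quantile normalization) and -0.10 in complex V, beside -0.09 over all such probe sets. By a rule of at least 2-fold, 1 member was higher and 0 lower of 78 measurable, against 5.02% and 6.29% of all probe sets. With 1 array per condition there is no error and no test.

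The medians of complexes I and II were above 0 on the other wild-type LPS arrays. Set against the same medium array, complex I had a median log2 ratio of 0.11 on wild type 1 of the Trib1 line and 0.10 on wild type 2, with 12 and 14 of 34 genes lower. Complex II had medians of 0.06 and 0.16, complex III 0.08 and 0.15, complex IV 0.27 and 0.46, and complex V 0.32 and 0.13. The 3 comparisons share the medium array, and 2 of the 3 LPS arrays come from the Trib1 line. That line differs from the LPS pair in sex-linked transcripts and deposited scale. LPS is therefore mixed with the set of arrays in the comparisons with wild type 1 and 2 and in the limma fit below. In complex I, 9 genes (26.5%) (Ndufa8, Ndufa9, Ndufa10, Ndufb8, Ndufb10, Ndufb11, Ndufs1, Ndufs7 and Ndufv2) lay below medium on all 3 LPS arrays and 4 (11.8%: Ndufa4, Ndufa12, Ndufb1 and Ndufs4) above it on all 3, against 29.2% and 22.1% of all probe sets. In complex IV, 1 gene (Cox4i1) was below medium on all 3 and 10 of 15 (66.7%) above it. Those above were Cox5b, Cox6b1, Cox6c, Cox7a2, Cox7c and Cox8a and the tissue isoforms Cox4i2, Cox6a2, Cox6b2 and Cox8c. Limma of the 3 wild-type LPS arrays against the medium array, which assumes that the lone medium array varies like the others, called 0 of 78 members at a Benjamini-Hochberg adjusted p under 0.05 and 2 at an unadjusted p under 0.05, 1 higher (Ndufb1) and 1 lower (Ndufb10), against 3.65% and 4.51% of all probe sets. With adjustment, the same fit called 0.158% of all probe sets higher and 0.0106% lower.

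**Figure D1:**
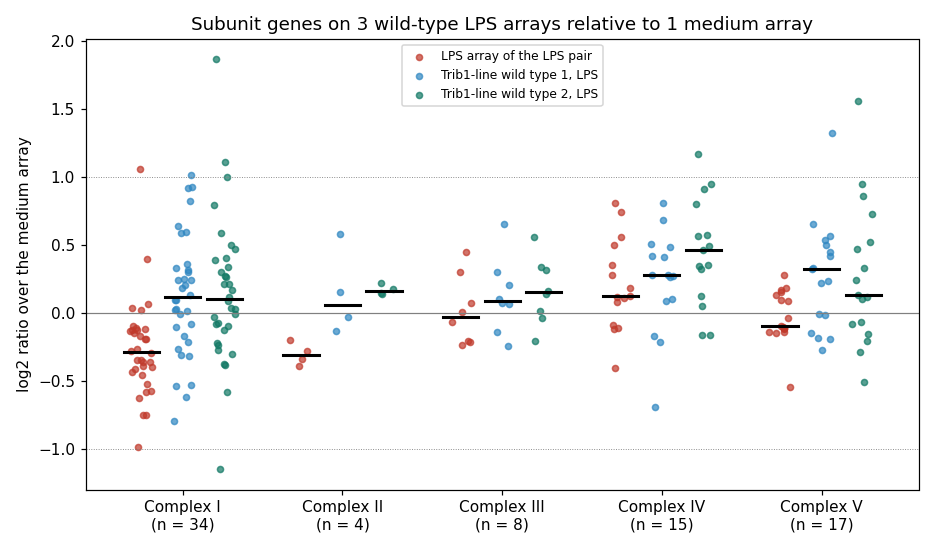
Log2 ratios of the 78 measurable subunit genes over the medium array (vertical axis, log2 scale) by complex, for the LPS array of the LPS pair (red) and the wild-type Trib1-line LPS arrays 1 (blue) and 2 (green). Each point is a gene, black bars are medians and dotted lines mark 2-fold. The complex I median is -0.29 on the LPS array of the pair and 0.11 and 0.10 on the other LPS arrays.

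Among the complex I genes, Ndufb1, a small accessory subunit of the distal membrane arm, was the member past the 2-fold rule. Its scaled intensity was 658.7 with LPS and 315.7 in medium (2.09-fold), and in wild type of the Trib1 line 636.5 and 1149.6. Its medium value was the lowest of the 6 arrays. In limma of the 3 wild-type LPS arrays against medium its log2 difference was 1.31 (SE 0.41, unadjusted p = 0.0149, Benjamini-Hochberg adjusted p = 0.427). Ndufb10, another accessory subunit of the same arm, ran the other way. It measured 799.8 with LPS and 1345 in medium (1.68-fold lower), with 689.1 and 869.9 in the knockout-labelled samples and 774.5 and 605.8 in wild type of that line. On each of the LPS arrays Ndufb10 lay below the medium array. The limma difference was -0.90 (SE 0.30, unadjusted p = 0.0208, adjusted p = 0.483). Both limma differences mix LPS with the set of arrays. Both genes have 1 probe set of a single gene symbol, so neither has a second reading here.

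Ndufs8, an iron-sulphur subunit of the arm that delivers electrons to ubiquinone, had the lowest ratio, 988.5 with LPS against 1963 in medium (1.99-fold lower). Knockout-labelled samples read 3409 and 1993 and wild type of that line 3731 and 2276, so arrays numbered 1 lay above those numbered 2. Of the other probe sets of Ndufs8, 1434579_x_at gave 909.6 with LPS and 1502 in medium, and 1434212_at gave 439.7 and 393.4, which runs the opposite way. Ndufs7, its neighbour in that arm, measured 556.7 with LPS and 940.2 in medium (1.69-fold lower), with 833.9 and 893.7 in wild type of the Trib1 line. Ndufa8, an accessory subunit, was the other complex I gene past 1.5-fold, at 983.4 with LPS and 1519.7 in medium (1.55-fold lower). Ndufs4, an accessory subunit of the NADH-oxidising arm, measured 1365 with LPS and 1037 in medium (1.32-fold higher), and in wild type of the Trib1 line 1963 and 2234. Each of the wild-type LPS arrays was above medium for Ndufs4. Ndufa12, an accessory subunit near the same arm, stood at 1256 with LPS and 1202 in medium. The core subunits that bind NADH and carry the first iron-sulphur centres are given for comparison: Ndufv1 had a log2 ratio of -0.43, Ndufv2 of -0.12 and Ndufs1 of -0.36, all 3 named here for their role.

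Complex II oxidises succinate through the flavoprotein Sdha and the iron-sulphur protein Sdhb, anchored by Sdhc and Sdhd. Sdha measured 1276 with LPS and 1552 in medium, Sdhb 1717 and 2251, Sdhc 1708 and 1966, and Sdhd 1439.9 and 1820.5. All 4 were lower with LPS in the LPS pair on these probe sets, by 1.15-fold to 1.31-fold. A second Sdha probe set, 1426689_s_at, was lower by more, at 563.8 with LPS and 1019.9 in medium (log2 -0.86). The other Sdhc probe set, 1435986_x_at, read 1901 and 1937. Other probe sets ran the opposite way. Sdhd on 1437489_x_at read 337.2 with LPS and 279.0 in medium, and Sdha on the near-floor 1433293_at 60.1 and 45.6. In wild type of the Trib1 line Sdhb read 2200.2 and 2483, Sdhc 2944 and 2169 and Sdhd 2025 and 2121. The values of Sdhc and Sdhd lay above medium and those of Sdhb on either side of it.

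In complex III, Uqcrfs1, the Rieske iron-sulphur subunit, had the highest ratio, 2941 with LPS and 2153 in medium (1.37-fold). Uqcr10, a small subunit, measured 1236 and 1002, and Uqcrh, the hinge subunit near cytochrome c1, 2361 and 2241. The core subunits Uqcrc1 (2278 with LPS, 2639 in medium) and Uqcrc2 (1047 and 1232) and the ubiquinone-site subunit Uqcrq (1073 and 1242) had the lowest ratios, none under -0.23 on the log2 scale. The weaker probe sets 1434340_at of Uqcr10 (225.8 with LPS and 293.3 in medium) and 1427880_at of Uqcrq (89.3 with LPS and 81.6 in medium) had the opposite sign. In complex V the highest ratio was that of Atp5md, a small membrane subunit, at 758.8 with LPS and 625.1 in medium (1.21-fold). Atp5g1, a gene for the c subunit of the membrane rotor, measured 1072 and 944.2, and Atp5l 3094 and 2758. Atp5c1, the gamma subunit of the rotor shaft, was lowest at 2742 with LPS and 4002 in medium (1.46-fold lower), with Atp5d (3199 and 3525) and Atp5e (1385 and 1533) next. Ratios over the other c subunit genes were -0.11 for Atp5g2 and -0.10 for Atp5g3 on the log2 scale. Opposite signs came from 1423716_s_at of Atp5d (1434 with LPS and 1253 in medium) and the near-floor 1456128_at of Atp5g2 (50.4 with LPS and 36.4 in medium).

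Complex IV holds most of the members near or under the floor, many of them tissue isoforms. Cox8b, the heart and muscle isoform of subunit VIII, and Cox7b2, a testis isoform, were under the floor on all 6 arrays, with highest values of 22.6 and 28.8. The lung and hypoxia isoform Cox4i2 measured 98.7 with LPS and 67.1 in medium, and its ubiquitous partner Cox4i1 6266 and 6673. The muscle isoform Cox6a2 measured 83.5 with LPS and 59.0 in medium, and Cox6a1 11287 and 10665. The testis isoform Cox6b2 reached 52.2 with LPS and was under the floor in medium (28.7), at least 1.75-fold higher, while Cox6b1 measured 7862 and 6918. The muscle isoform Cox7a1 measured 36.4 and 48.2, Cox7a2 8381 and 7739, and the supercomplex factor Cox7a2l 1786 and 1942. Cox7c, a ubiquitous subunit whose probe set of 1 gene symbol lay near the floor, measured 51.6 with LPS and 30.8 in medium. Of subunit VIII, Cox8a measured 2666 and 2451. Cox8c, a testis isoform, measured 581.4 and 479.9 on its main probe set and 10.7 and 74.6 on 1443789_x_at, in opposite directions. Cox5a, a subunit of the matrix side, stood at 7105 with LPS and 7681 in medium. On their main probe sets the ubiquitous subunits other than Cox7c had log2 ratios between -0.12 and 0.35, the upper value that of Cox6c. Weaker probe sets gave lower ratios of -0.01 for Cox6c (1434491_a_at), -0.86 for Cox5b (1436149_at) and -0.55 for Cox8a (1436409_at), the last with LPS under the floor.

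Markers of other cells differed within the LPS pair. The summed intensity of 5 B cell markers, all above the floor on all arrays, was 8355 with LPS and 2906 in medium of the pair, and 408.9 to 1572 on the Trib1-line arrays. That of 7 neutrophil markers was 2449 with LPS and 1378 in medium. In bulk RNA fewer cells of a type and less RNA per cell cannot be told apart, and the part of these markers in the subunit values was not tested. Sums for 6 dendritic cell markers were 600.1 with LPS and 279.6 in medium, and for 6 T or NK cell markers 322.2 and 226.3, with 2 and 1 above the floor on all 6 arrays and Cd4 under it on all 6. The 8 eosinophil or mast cell markers summed to 1467 with LPS and 1167 in medium. Mesothelial or stromal markers (8) ran the other way, at 722.1 with LPS and 933.4 in medium. Of 7 striated muscle markers, 2 were above the floor on all 6 arrays and Actn2 under it on all 6, with sums of 454.3 to 629.9 on the Trib1-line arrays and 352.3 with LPS and 338.4 in medium in the pair. Of 5 adipocyte markers, Adipoq, Lep, Cidec and Ucp1 were under the floor on all arrays, while Fabp4, a fatty acid carrier that macrophages also make, carried the sum, 1315 to 2168 on the Trib1-line arrays and 4755 with LPS and 4556 in medium in the pair.

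The Trib1-line arrays were then set against the LPS pair, a comparison chosen after the data were seen. Some subunit genes of each complex, though under 50% of all members, had higher scaled intensities on every Trib1-line array than on the pair. In 35 of 78 measurable members (44.9%) all 4 Trib1-line arrays lay above both arrays of the pair, and in 1 (Atp5pb, 1.28%) all 4 lay below. Over all 30826 probe sets measurable on 2 or more arrays, the shares were 14.7% and 11.4%. Members higher on the Trib1-line arrays numbered 15 of 34 in complex I, 1 of 4 in II, 4 of 8 in III, 6 of 15 in IV and 9 of 17 in V. With quantile normalization the count was 35. Over all 152 measurable probe sets of these genes it was 60. Between arrays of the same treatment, both wild-type Trib1-line arrays were above the LPS array of the pair in 53 of 78 members (67.9%, against 34.6% of all probe sets) and both below it in 9 (against 31.3%), with a median log2 difference of 0.31 beside 0.04 for all probe sets.

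The complex I genes were Ndufa2, Ndufa3, Ndufa4, Ndufa5, Ndufa6, Ndufa12, Ndufb3, Ndufb6, Ndufb7, Ndufb9, Ndufc1, Ndufc2, Ndufs4, Ndufs5 and Ndufs8, and that of complex II was the membrane anchor Sdhc. In complex III they were Uqcr11, Uqcrb, Uqcrh and Uqcrq, in complex IV Cox5a, Cox5b, Cox6a2, Cox6b1, Cox7a2 and Cox8a, and in complex V Atp5e, Atp5g1, Atp5j, Atp5j2, Atp5k, Atp5l, Atp5md, Atp5mpl and Atp5o. Atp5md is an example with a wide gap. It measured 1576 and 1855 in knockout-labelled samples and 1560.3 and 1843 in wild type of that line, against 758.8 and 625.1 with LPS and in medium in the pair. Ndufa4, first described with complex I and since assigned to complex IV, measured 2881 and 2871 in knockout-labelled samples and 2781 and 2713 in wild type of the line, against 1594 and 1569 in the pair. Uqcrq of complex III measured 2157 and 2260.0 in knockout-labelled samples and 1954 and 1829 in wild type of the line, against 1073 and 1242. These 3 were chosen for mention after their values were seen. Line, sex-linked transcripts, deposited scale and marker sums such as that of B cells all differ between the 2 sets. They cannot be told apart as sources of the difference.

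**Figure D2:**
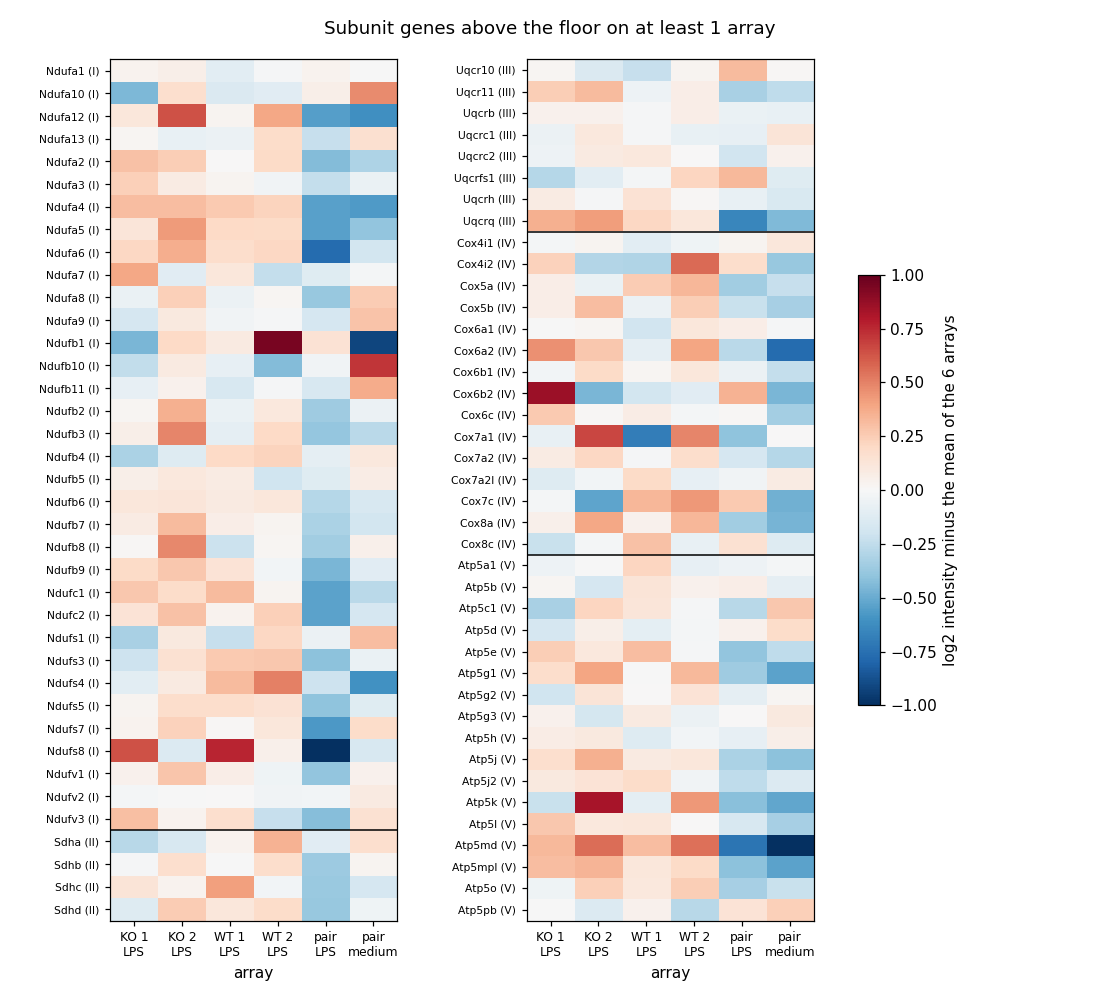
Log2 intensity of each subunit gene above the floor on at least 1 array, minus its own mean over the 6 arrays (colour), by array (columns) and gene with its complex (rows), black lines dividing the complexes. Colours are cut at 1 on either side. Blue prevails in the columns of the LPS pair, where 35 genes were below all 4 Trib1-line arrays.

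Between genotypes after LPS, no subunit gene passed the test, and the differences were small. Limma called 0 of 78 members tested at a Benjamini-Hochberg adjusted p under 0.05, and 0 at an unadjusted p under 0.05. Over all 29078 probe sets the adjusted calls were 0% higher and 0% lower, and the unadjusted ones 2.28% and 2.71%. The adjusted p was at least 0.999 for every member. The median log2 difference, knockout-labelled minus wild type, was 0.05 over the members tested, beside -0.01 over all probe sets tested. By complex it was 0.08 in I, -0.10 in II, 0.03 in III, 0.05 in IV and 0.03 in V. Both knockout-labelled arrays lay above both wild-type arrays in 14 members (17.9%) and below them in 8 (10.3%), against 15.4% and 16.3% of all probe sets. Summed intensities of some cell markers also separated the genotypes. Mesothelial or stromal markers (8) measured 1750.0 and 4289.7 on the knockout-labelled arrays and 1159.7 and 1479 on the wild-type arrays. Neutrophil (2859 and 2370 against 2275 and 1859) and macrophage markers (129217 and 126089 against 110935 and 121969) were also higher. Eosinophil or mast cell markers were lower, at 193.5 and 316.6 against 728.2 and 1067. So were B cell markers (408.9 and 715.2 against 784.3 and 1572) and the adipocyte sum carried by Fabp4 (1432 and 1315 against 1759 and 2168). The part of these sums in the subunit values was not tested.

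Intervals of most of these genes were narrower than the median over the array. The 95% interval of a member's log2 difference reached a median of 0.45 to each side. That median was 0.84 over all probe sets tested and 0.81 with 1 probe set per gene. For 69 of 78 members the interval lay wholly within a 2-fold difference in either direction. That share was not computed over all probe sets, so it is not shown to be particular to these genes. The limma fit ties the error partly to intensity, and the part of intensity in these widths was not tested. By complex this held for 31 of 34 genes in I, 4 of 4 in II, 8 of 8 in III, 10 of 15 in IV and 16 of 17 in V. The exceptions in complex I were Ndufb1, Ndufs8 and the near-floor Ndufb4, and in complex V Atp5k. In complex IV they were Cox4i2 and Cox6a2, of low intensity but above the floor on every array, and the near-floor Cox6b2, Cox7a1 and Cox7c. With 2 samples per genotype the smallest p of a two-sided exact permutation test is 0.333.

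**Figure D3:**
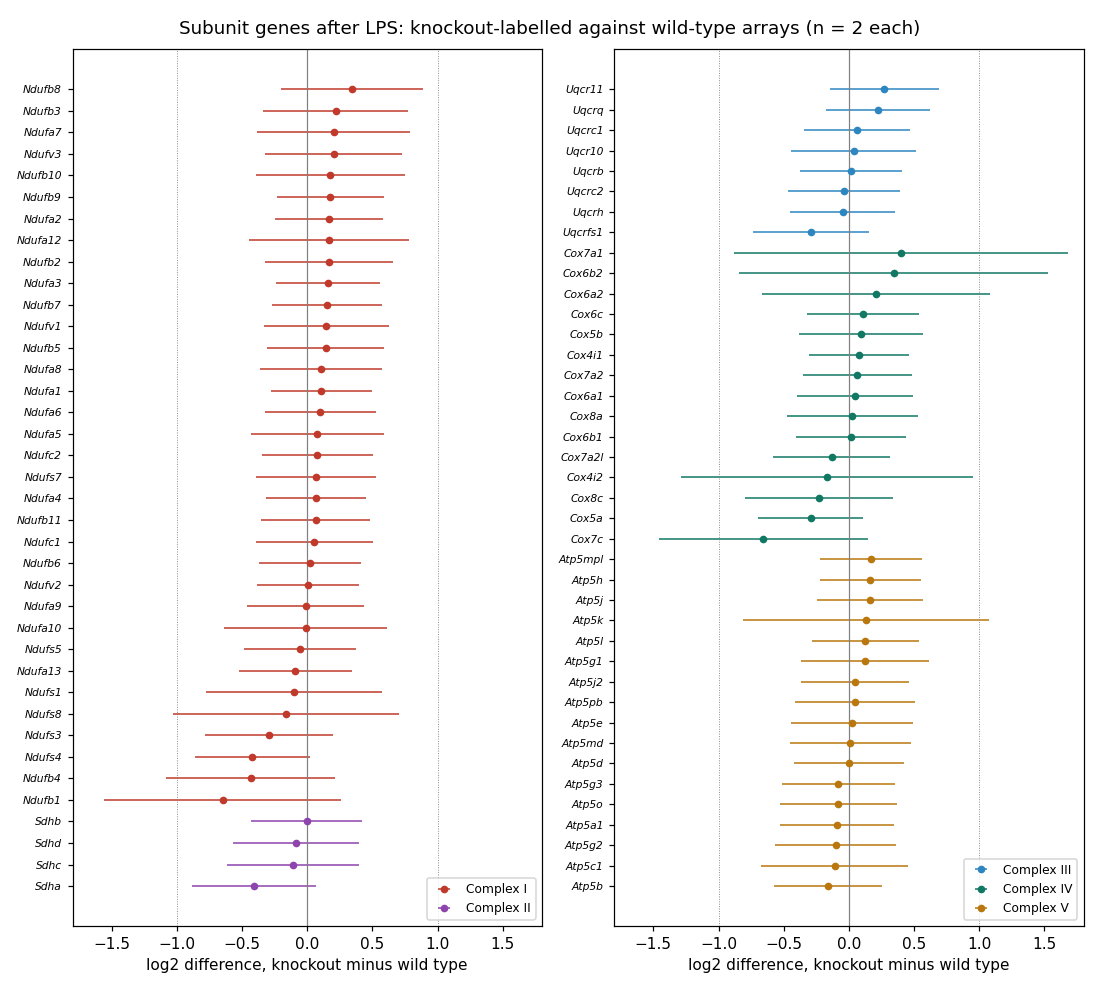
Log2 difference of each of the 78 subunit genes tested, knockout-labelled minus wild-type Trib1-line arrays after LPS (horizontal axis, n = 2 each), with 95% intervals from limma, by complex and sorted by difference. Dotted lines mark 2-fold. Every interval includes 0, and those of the near-floor genes Cox7a1 and Cox6b2 are the widest.

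Of the complex I genes, the lowest p belonged to Ndufs4. It measured 1459 and 1679 on the knockout-labelled arrays and 1963 and 2234 on the wild-type arrays, a log2 difference of -0.42 (SE 0.18), with limma unadjusted p = 0.0596 and adjusted p = 0.999. The genotypes did not overlap, and the LPS array of the pair (1365) lay below all 4. Its probe sets 1438166_x_at and 1418117_at had log2 differences of -0.25 and -0.22, and the near-floor 1459760_at 0.46. Ndufb1 measured 434.1 and 685.2 against 636.5 and 1149.6, a difference of -0.65 (SE 0.37), with overlapping groups. Ndufb4, another membrane arm subunit, read 24.4 and 34.0 against 42.7 and 43.4, with knockout-labelled array 1 under the floor and a difference of -0.43 (SE 0.26). Ndufs3, a core subunit, measured 954.9 and 1222 against 1319.8 and 1327 without overlap, and is named after its values were seen. At the other end, Ndufb8 measured 2877 and 3989 against 2465 and 2902 (log2 0.34, SE 0.22), Ndufb3 1225 and 1651 against 1107 and 1352 (log2 0.22, SE 0.22) and Ndufa7 3872 and 2746 against 3202 and 2507 (log2 0.20, SE 0.24). The groups overlapped in these 3. Without overlap on the higher side were Ndufa1, Ndufa2, Ndufa3, Ndufa4, Ndufa6, Ndufb6, Ndufb7 and Ndufb9, with log2 differences between 0.02 and 0.18. Ndufs8 disagreed among its probe sets, at -0.16 on the main one and above 0 on each of the others, at 0.10 on 1455283_x_at, 0.21 on 1434579_x_at, 0.33 on 1423908_at, 0.60 on 1434212_at and 0.83 on 1434213_x_at.

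In complex II, Sdha measured 1139 and 1238 on the knockout-labelled arrays and 1413 and 1755 on the wild-type arrays. The groups did not overlap, with a log2 difference of -0.41 (SE 0.19) and a 95% interval of -0.88 to 0.07 (limma unadjusted p = 0.0797, adjusted p = 0.999). A second Sdha probe set, 1426689_s_at, read 562.3 and 507.6 against 688.7 and 774.6, a difference of -0.45. The LPS array of the pair, also wild type, stood at 1276 and 563.8 on these probe sets, each time below the wild-type Trib1-line values. Sdhb measured 2190.2 and 2476 against 2200.2 and 2483 (log2 -0.01, SE 0.17), Sdhc 2416 and 2272 against 2944 and 2169 (log2 -0.11, SE 0.21) and Sdhd 1710.0 and 2231 against 2025 and 2121 (log2 -0.09, SE 0.20). The groups overlapped in these 3. The other Sdhc probe set, 1435986_x_at, read 2494 and 2039.8 against 1768 and 1959, higher without overlap (log2 0.28).

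In complex III, Uqcr11, a small accessory subunit, measured 1346 and 1409.6 against 1097 and 1185 (log2 0.27, SE 0.17) and Uqcrq 2157 and 2260.0 against 1954 and 1829 (log2 0.22, SE 0.16). Both had separate groups, higher on the knockout-labelled arrays. The Rieske subunit Uqcrfs1 was separate in the other direction, at 1928 and 2175 against 2307 and 2714 (log2 -0.29, SE 0.18). The other named genes of the complex were Uqcrc1 (log2 difference 0.06), Uqcrc2 (-0.04) and Uqcrh (-0.05), all with overlapping groups.

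In complex IV, Cox5a measured 9435 and 8629 on the knockout-labelled arrays and 10763 and 11362 on the wild-type arrays, without overlap (log2 -0.29, SE 0.16, limma unadjusted p = 0.122, adjusted p = 0.999). Its other probe sets, 1448153_at and 1439267_x_at, had differences of -0.37 and -0.37. All 3 readings of Cox5a, made on the same samples, thus lay below 0. The LPS array of the pair, also wild type, read 7105, 4873 and 4356 on these probe sets. Each of these values was below every Trib1-line value, knockout-labelled or wild type. The largest differences of the complex came from near-floor genes: Cox7c at 42.3 and 23.8 against 54.0 and 58.0 (log2 -0.66, SE 0.32), Cox7a1 at 45.8 and 76.6 against 20.7 and 67.7 (log2 0.40, SE 0.52) and Cox6b2 at 74.2 and 17.7 against 36.2 and 38.0 (log2 0.34, SE 0.48). In each of these 3 an array was under the floor. Cox5b had a difference of 0.09 on its main probe set and 0.11, 0.19 and 0.01 on 1435613_x_at, 1454716_x_at and 1416902_a_at. The weaker Cox5b probe set 1436149_at gave -0.30. Cox6a2 had a difference of 0.21, Cox4i2 of -0.17 and Cox8c of -0.23, while a second Cox8c probe set gave 0.64. The ubiquitous partners were closer to 0, with log2 differences of 0.08 for Cox4i1, 0.05 for Cox6a1, 0.02 for Cox6b1, 0.06 for Cox7a2, -0.13 for Cox7a2l and 0.03 for Cox8a. Their intervals lay within 2-fold.

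Complex V had the narrowest range of differences, -0.16 to 0.17 on the log2 scale. Atp5mpl, a small proteolipid, measured 2634 and 2692 against 2305 and 2435, Atp5h, a stalk subunit, 5337 and 5419.7 against 4642 and 4968, and Atp5j, another stalk subunit, 5202 and 5909 against 4923 and 4988. These 3 had separate groups, higher on the knockout-labelled arrays. The catalytic beta subunit Atp5b was the gene with separate groups in the other direction, at 8214 and 7185 against 8842 and 8322 (log2 -0.16, SE 0.17). Atp5c1 had a difference of -0.11 on its main probe set and 0.19 on the near-floor 1438809_at, and the c subunit genes Atp5g1, Atp5g2 and Atp5g3 of 0.12, -0.10 and -0.08.

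**Figure D4:**
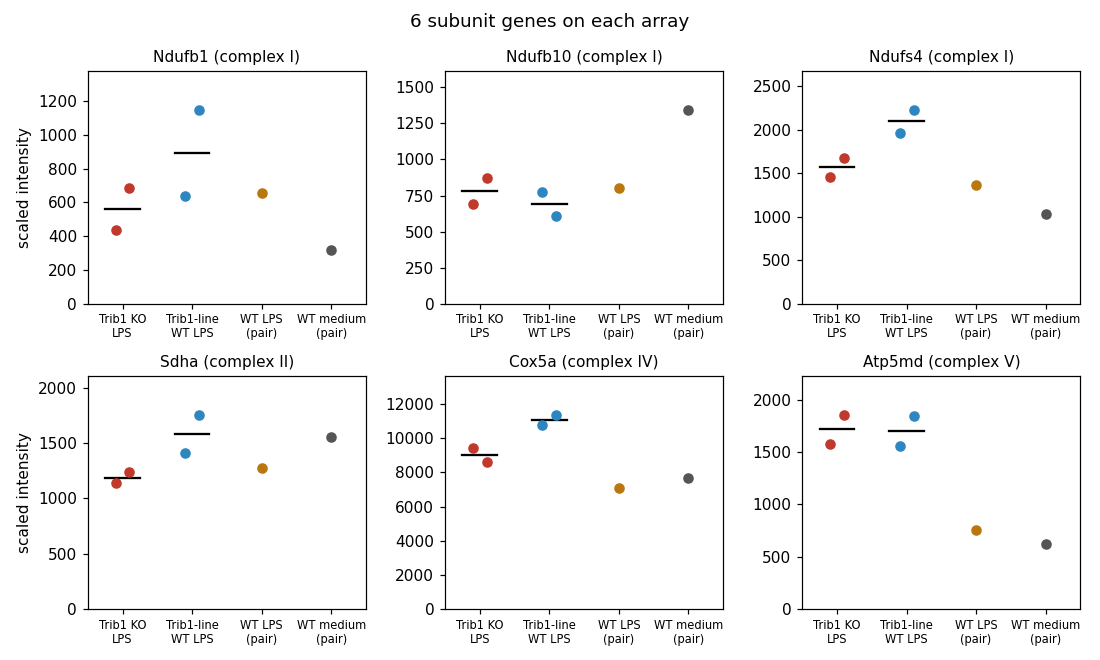
Scaled intensity (vertical axes, from 0) of 6 subunit genes on each array, by group: the LPS-treated Trib1-line genotypes, knockout-labelled and wild type (n = 2 each, bars are means) and the LPS and medium arrays of the LPS pair (n = 1 each). Ndufs4, Sdha and Cox5a have separate genotypes, Ndufb10 is highest in medium, and Atp5md is lower on both arrays of the pair.

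Other mitochondrial genes were set beside the subunits in the LPS pair. Over the whole series, 58% of genes, with 1 probe set each, were lower with LPS (median log2 ratio -0.11). By 2-fold or more, 5.02% of all probe sets were higher and 6.29% lower. The genes named below are those past 2-fold, without a test. Of 47 measurable assembly factors of the complexes, 40 were lower with LPS (median log2 ratio -0.33), and 1 was higher and 3 lower by 2-fold or more. Sco1, a copper chaperone of complex IV, measured 276.0 with LPS and 88.4 in medium (3.12-fold higher), and its relative Sco2 121.4 and 251.8 (2.07-fold lower). The complex I factors Ndufaf8 (2.07-fold) and Foxred1 (2.07-fold) were also lower. Among 33 other electron transfer and nucleotide transport genes, Ndufa4l2, a relative of Ndufa4 known as a hypoxia-induced gene, was at least 2.86-fold higher, and Dhodh, the pyrimidine synthesis enzyme that feeds ubiquinone, at least 2.64-fold and Aifm1, an inner membrane flavoprotein, 2.27-fold lower (median of the list -0.25). Of 23 regulators of mitochondrial biogenesis, the mitochondrial helicase Twnk (2.53-fold) and the deacetylase Sirt3 (at least 3.12-fold) were lower (median -0.04). The 75 mitochondrial ribosomal protein genes had a median of -0.25 with 1 lower by 2-fold (Mrpl39), and the 46 cytosolic ones 0.16 with 0 past 2-fold. On the wild-type Trib1-line arrays these medians over medium were -0.13 and -0.29 for assembly factors, -0.09 and -0.17 for mitochondrial and -0.11 and -0.09 for cytosolic ribosomal genes.

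Between genotypes, limma called 0 of 47 assembly factors, 0 of 33 other electron transfer genes, 0 of 24 biogenesis regulators, 0 of 75 mitochondrial and 0 of 44 cytosolic ribosomal genes at an adjusted p under 0.05. At an unadjusted p under 0.05 the counts higher and lower were 1 and 1, 2 and 1, 0 and 2, 2 and 0, and 1 and 0, in the same order. Over all probe sets the unadjusted shares were 2.28% higher and 2.71% lower. Higher were Sco2, Ndufa4l2, Sqor, Mrpl33, Mrpl39 and Rps4l, and lower Sco1, Coq2, Ppargc1b and Sirt1. Rps4l had the lowest p of these (log2 2.80, SE 0.39, limma unadjusted p = 0.000443, adjusted p = 0.766). It measured 257.0 and 168.3 on the knockout-labelled arrays, and both wild-type values (8.90 and 5.55) were under the floor, so 2.80 is a lower bound. In the LPS pair, also wild type, Rps4l was above the floor, at 117.1 with LPS and 114.5 in medium. The coactivator Ppargc1b, known to drive respiratory gene expression, measured 147.6 and 223.1 on the knockout-labelled arrays and 492.5 and 354.6 on the wild-type arrays (log2 -1.20, SE 0.32, limma unadjusted p = 0.011, adjusted p = 0.899), and is named after its values were seen. The LPS and medium arrays of the pair read 321.0 and 402.7.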

How the data were processed

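RNA of 6 macrophage samples was hybridised to one-colour Affymetrix arrays, and the deposited table gives a linear intensity per probe set, which the authors made with MAS5 per the submitters' processing notes, whose version and scaling target are not given in the sources used here. The table holds 45101 probe sets, of which 64 controls were left out after scaling. Groups come from the sample titles. Gene symbols come from GEO's platform annotation, and promoters from RefSeq.

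Each array was rescaled to the mean of the 6 trimmed means (lowest and highest 2% left out), 233.9. Values under the pooled 40th percentile, 29.9, were set to it, and log2 was taken. The genotype comparison used limma 3.58.1 under R 4.3.3, with lmFit and a trended eBayes prior (3.68 degrees of freedom beside 2 residual), two-sided, on the 29078 probe sets that exceeded the floor on 2 or more of the 4 arrays, with Benjamini-Hochberg adjustment over all of them. LPS and medium, with 1 array each, were compared by ratio alone. The limma fit and the fold rule were run on simulated data with independent noise, set narrower than the spread over all probe sets here. That check does not show what the test can detect in these data. Figures used Python 3.11.15 and matplotlib 3.10.9. Precision is limited by the number of arrays.

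The members and gene lists were chosen with earlier results of these data known. Named were, per complex and comparison, the 3 highest and 3 lowest members (all of complex II), those past a threshold, those never above the floor, and tissue isoforms. Of the other lists, those past a threshold were named, and another probe set of a named member where its sign differed and the gap was over 0.3 on the log2 scale. Some other probe sets of the same genes are given beside these. Of 80 probe sets chosen, 15 carry the suffix of sets that can match several transcripts (_s_at or _x_at). Samples with the same number of the labels deviated together over all probe sets (r = 0.35), but the labels do not tie the numbers to animals or batches, so the block is an alternative. The other alternatives were the scaling, the floor, the filter, the prior, the probe sets, the fold rule and the arrays used.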

Additional observations from a re-analysis of the deposited data

How the results depend on the processing

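Between genotypes, 0 members were called by limma in any of the settings tried: the scalings, floors, filter, prior, all probe sets, replicate block, added LPS array and each array left out. Over all probe sets the count was 0 except with the number of the labels as a replicate block (116, 85 higher and 31 lower) and with an array left out (5 without wild type 1 to 68 without knockout 2). The members' median log2 difference of 0.05 was 0.14 with the LPS array of the pair as an added wild type, 0.12 as deposited, and between -0.00019 and 0.09 with an array left out. Signs of uncalled named members turned as follows: as deposited for Sdhb (0.062), Uqcrc2 (0.031) and Uqcrh (0.020); with a floor at the 25th percentile for Cox6b2 (-0.034); and with the added wild type for Sdhb (0.14), Sdhd (0.090), Sdhc (0.079), Uqcrc2 (0.046), Uqcrh (0.0040) and Atp5c1 (0.00020). With an array left out the log2 differences ran from -0.045 to 0.45 for Ndufa7, -0.094 to 0.083 for Sdhb, -0.33 to 0.11 for Sdhc, -0.28 to 0.11 for Sdhd, -0.019 to 0.15 for Uqcrc1, -0.11 to 0.034 for Uqcrc2, -0.12 to 0.020 for Uqcrh, -0.035 to 0.45 for Cox6a2, -0.31 to 1.00 for Cox6b2, -0.19 to 0.99 for Cox7a1, -0.27 to 0.063 for Atp5g2 and -0.38 to 0.16 for Atp5c1. The cause of these turns was not tested. The other differences recomputed kept their sign in these settings, but with an array left out some moved by over 1.5 times: -1.08 to -0.22 for Ndufb1, 0.0019 to 0.43 for Ndufb3, 0.11 to 0.58 for Ndufb8, -0.56 to -0.25 for Sdha, -0.41 to -0.17 for Uqcrfs1, -0.91 to -0.40 for Cox7c, -0.41 to -0.045 for Cox8c, 0.070 to 0.25 for Atp5j and -0.26 to -0.063 for Atp5b. Each such fit has a lone array in 1 genotype, assumed to vary like the other genotype, and the absence of calls there says nothing about stability. The counts of members with separate genotypes, 14 higher and 8 lower, were 18 and 6 as deposited, a check chosen after seeing the data.

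For LPS against medium, the count of members past the fold rule, 1, was 2 with quantile normalization, 2 and 6 with wild-type Trib1-line array 1 or 2 in place of the LPS array, 7 at 1.5-fold, 0 at 4-fold, 3 over all their probe sets and 0 by limma of 3 wild-type LPS arrays (adjusted p under 0.05, with 2 unadjusted). Over all probe sets the 3293 past 2-fold became 6614 and 1884 with floors at the 25th and 60th percentiles, 6215 with wild type 2 in place, 8882 at 1.5-fold, 461 at 4-fold and 48 by limma. The members' median log2 ratio of -0.12 was -0.23 with quantile normalization, 0.20 and 0.17 with wild type 1 or 2 in place, and 0.075 by limma.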
